A study of Mus musculus with 6 samples.

Results

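Genes of the prolactin hormone family and the gene for the prolactin receptor were examined in cultured mouse aortic smooth muscle cells. The 6 genes, Prl, Prlr, Prl2c2, Prl2c3, Prl2c5 and Prl8a2, were taken by symbol from 27179 genes of the expression table. They were picked because of the counts measured in these same libraries, so their levels and differences between genotypes are given as descriptions, with no test. There were 6 RNA-seq libraries, 3 labelled WT and 3 labelled Bmal1 KO, all from primary vascular smooth muscle cells of the mouse aorta. Bmal1 encodes the partner of CLOCK in the circadian clock. Both labels share the culture, in DMEM to which 10% fetal bovine serum was added, under 10% CO2 at 37 °C. Both labels then had 7 days in the medium called diabetic, a basal growth medium with glucose at 4.5 g/L and H2O2 at 0.3 mM, so the comparison holds no untreated culture. The mouse strain, age and sex and the way Bmal1 was deleted are not stated in the labels, nor is whether replicates came from separate animals or cultures. P-values therefore reflect only how these samples spread, which may be technical.

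Prolactin is the pituitary hormone known for driving milk production. It binds the prolactin receptor, a single-pass receptor of the cytokine class, which signals mainly through the kinase JAK2 and the transcription factors STAT5A and STAT5B. In rodents the prolactin gene has been copied many times. The copies encode secreted hormones of the placenta and the decidua, the lining of the pregnant uterus. The Prl2c genes encode proliferins, growth-related glycoproteins of placental giant cells that were first found in serum-stimulated cultured fibroblasts, are known to promote vessel growth, and bind the mannose 6-phosphate/IGF2 receptor rather than the prolactin receptor. Prl8a2 encodes decidual prolactin-related protein.

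Sequencing assigned 32503525 to 44657471 reads per library to genes. Levels are in normalized read counts, with the SD over 3 libraries after each ±. Bmal1, listed under its older symbol Arntl, was higher, not lower, under the Bmal1 KO label. It stood at 529, 619 and 590.3 in WT and at 1036, 941 and 1036 in the libraries labelled Bmal1 KO, and counts over the whole gene cannot show whether an exon is missing. The labels also separate Xist, at 12.4 to 89.9 in WT and 3842 to 3887 in Bmal1 KO, and the Y-linked gene Ddx3y, at 2784 to 3314 and 68.5 to 82.5. Every difference given here therefore runs along with those sex-linked genes, and the part of sex in it cannot be told apart from genotype. Smooth muscle genes had reads at both labels, from Acta2 at 20688 ± 1364 and 62931 ± 1900 to Myocd at 2.72 ± 3.20 and 82.4 ± 9.30. Myh11 was also low in WT, at 35.95 ± 28.3, and stood at 274 ± 16.3 in Bmal1 KO. In all, 8 of 8 such genes were higher in Bmal1 KO. In limma with Benjamini-Hochberg adjustment, 71.1% of 16086 tested genes passed the threshold of 0.05. Under the Bmal1 KO label, 36.2% of all tested genes were higher and 34.9% were lower, and the median log2 fold change was -0.012. The libraries had been scaled by the median ratio of genes, which by construction holds this median near no change. The balance of calls depends on the scaling. With TMM scaling 5438 genes were higher and 6146 lower, and with upper-quartile scaling 6142 and 5219.

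All 6 genes passed the filter of at least 10 normalized counts in at least 3 libraries, 4 of them (Prl, Prl8a2, Prl2c3 and Prl2c5) only through the Bmal1 KO libraries. In all 6, every library labelled Bmal1 KO lay above every WT library. The same held for 38.5% of the tested genes, and since the genes were chosen on this contrast nothing is read from their count. In bulk RNA a larger number of expressing cells cannot be told apart from more RNA per cell.

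**Figure D1:**
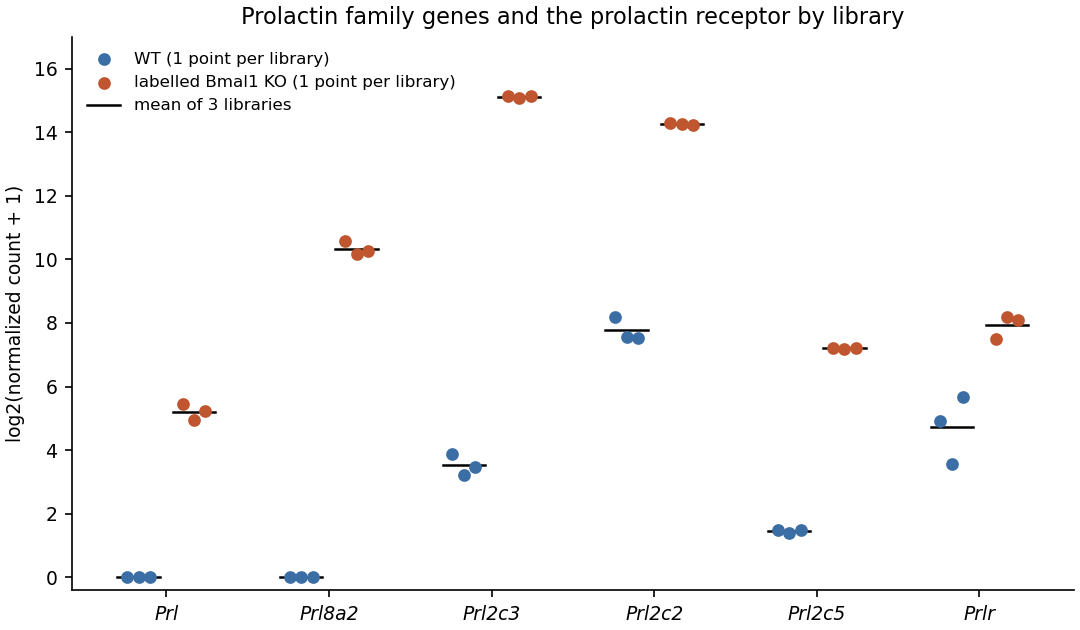
Level of each gene in each library, as log2 of the normalized count plus 1. Each point is 1 library and each bar the mean of 3. Prl and Prl8a2 had no reads in WT, the Prl2c3 points of the libraries labelled Bmal1 KO are the highest of all, and the WT points of Prlr are spread from 10.8 to 49.7 normalized counts.

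The proliferin genes Prl2c3, Prl2c2 and Prl2c5 lie in this order on chromosome 13, at chr13:12790816-12800093, chr13:12996120-13005393 and chr13:13182703-13191930 (GRCm38, the build also called mm10). In GENCODE M21 each has a transcript of 5 exons. Prl2c2 and Prl2c3 are on the minus strand and Prl2c5 is on the plus strand. The coding sequences of Prl2c2 and Prl2c3 have 675 bases each and differ at 3 of them (99.6% identity). Prl2c5 differs from Prl2c2 at 20 aligned coding bases (97% identity) and is 6 bases shorter. The stretch from coding base 190 to 329 is shown, counted from 1 at the A of the start codon. It holds 2 of the 3 coding bases that tell Prl2c3 from Prl2c2. Reads can be told apart only where the copies differ. The whole transcripts of Prl2c2 and Prl2c3, with their noncoding ends, differ at 4 aligned bases and have 15 bases in gaps. In Prl2c2, capitals mark each base that differs in either other copy, and in Prl2c3 and Prl2c5 they mark each base that differs from Prl2c2.
Prl2c2: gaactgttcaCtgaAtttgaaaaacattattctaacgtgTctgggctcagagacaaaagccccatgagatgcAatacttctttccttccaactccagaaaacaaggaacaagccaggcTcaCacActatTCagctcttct
Prl2c3: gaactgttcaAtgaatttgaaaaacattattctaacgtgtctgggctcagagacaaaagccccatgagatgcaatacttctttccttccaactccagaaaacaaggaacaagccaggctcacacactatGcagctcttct
Prl2c5: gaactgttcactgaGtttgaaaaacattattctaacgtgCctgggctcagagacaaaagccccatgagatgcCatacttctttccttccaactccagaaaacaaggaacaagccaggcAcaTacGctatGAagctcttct

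With the Prl2c2 base first, Prl2c3 has C200A and T319G within this stretch and T14C outside it. Prl2c5 has 8 substitutions in the stretch, and T319G is shared by Prl2c3 and Prl2c5. The stretch runs over 3 exons, and its longest piece of 108 bases lies at chr13:12998581-12998688 in Prl2c2, at chr13:12793288-12793395 in Prl2c3 and at chr13:13189368-13189475 in Prl2c5. Of all 50-base windows of the coding sequence, 12% in Prl2c2, 18.2% in Prl2c3 and 78.1% in Prl2c5 occur in no transcript of any other prolactin family gene, out of 62 family transcripts compared. With windows of 100 bases the shares are 37.2%, 37.2% and 100%. The coding sequences of Prl8a2 and Prl have 100% such windows at either length. How reads that match more than 1 copy were counted is not given in the sources used here. The split of reads among the Prl2c copies is therefore uncertain. Prl2c5 has more windows of its own, but far fewer reads than Prl2c2 and Prl2c3 in Bmal1 KO.

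Prl2c3 was at rank 15167 of all genes by its WT mean and at rank 105 by its Bmal1 KO mean. It stood at 13.8, 8.29 and 10.1 normalized counts in WT (15, 10 and 11 reads) and at 36164, 34671 and 35741 in the libraries labelled Bmal1 KO. The means were 10.7 ± 2.78 and 35525 ± 769.6 (SD, n = 3), 3312-fold apart, with a log2 difference of 11.59 on the log2(value + 1) scale used for every log2 value here. Spread in WT was that of counting (coefficient of variation 25.9%, against 29.2% from read counts alone), while in the 3 Bmal1 KO libraries it was 2.17%.

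Prl2c2 had the highest WT level of the 6 genes. Its WT values were 292, 189 and 184, and its values in the libraries labelled Bmal1 KO were 20184, 19672 and 19287, at rank 248. WT replicate 1 was the highest of the 3 WT libraries, and no library of 1 label came near the other label. The means of 222 ± 60.7 and 19714 ± 450 (SD, n = 3) were 88.9-fold apart (log2 difference 6.50).

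Prl2c5 was at the edge of detection in WT, with 2 reads in each WT library (levels of 1.83, 1.66 and 1.84). Under the Bmal1 KO label it had 146, 121 and 128 reads, which make 148.8, 145 and 146 normalized counts. The ratio of means was 82.5, with an exact 95% counting interval of 37.7 to 227, set by the 6 WT reads. This interval holds the fold of Prl2c2 but is too wide to say how close the folds were. The level of Prl2c5 per length in Bmal1 KO was the lowest of the copies.

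The make-up of the proliferin reads differed between labels. In WT, Prl2c2 took 94.9% (Wilson 95% interval 92 to 96.8) of the 335 reads of the copies in replicate 1, 95% (91.5 to 97.1) of 240 in replicate 2 and 93.9% (89.8 to 96.4) of 213 in replicate 3. In the libraries labelled Bmal1 KO it took 35.7% of 55442 reads, 36.1% of 45445 and 35% of 48299. Prl2c3 held 4.6% ± 0.51 in WT and 64.1% ± 0.58 in Bmal1 KO (SD, n = 3), so its ratio to Prl2c2 went from 0.0439 to 0.055 in WT libraries to 1.76 to 1.85 in Bmal1 KO libraries. Prl2c5 held 0.79% ± 0.18 and 0.265% ± 0.0015. Its reads were 13.3% to 20% of those of Prl2c3 in WT libraries and 0.409% to 0.418% in Bmal1 KO libraries. Its level in Bmal1 KO had a coefficient of variation of 1.29%, against 8.74% from counting alone. Whether reads from the other copies were counted as Prl2c5 was not tested. What share of each gene's reads was unique to that copy was not tested. Summed over the copies, the level was 234 ± 63.3 in WT and 55386 ± 1021 in Bmal1 KO, 237-fold apart (log2 difference 7.91). If each read was counted once, this sum does not depend on how assigned reads were split among the copies. Reads left unassigned would be missing from the sum, and reads counted at more than 1 copy would enter it more than once. The copies together took 0.14% to 0.146% of all assigned reads in the libraries labelled Bmal1 KO and 0.000537% to 0.00082% in WT. Intervals and floors given here cover counting error only.

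**Figure D2:**
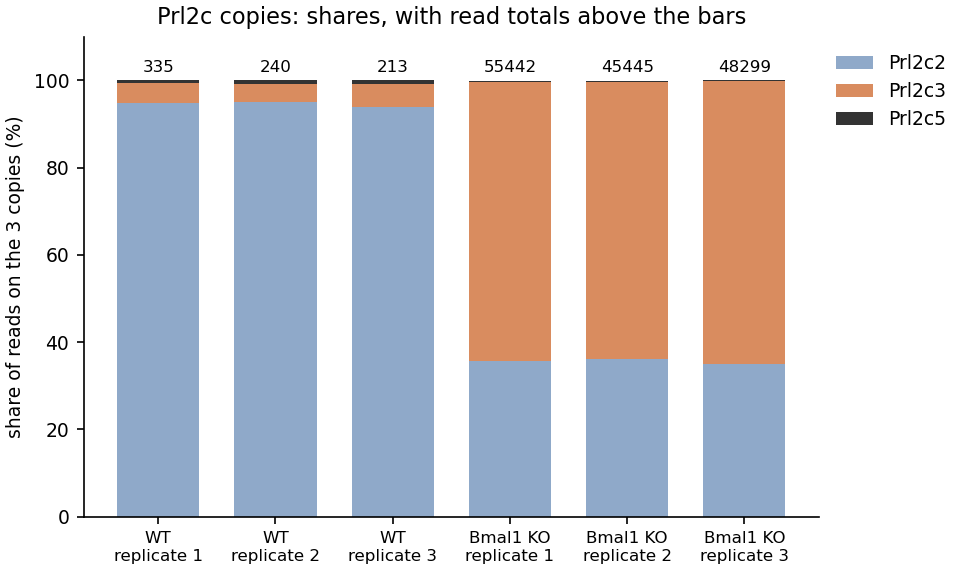
Share of the reads on the Prl2c genes that was assigned to each copy, per library, in percent, with the number of reads above each bar. Prl2c2 holds 93.9% to 95% in the WT libraries and 35% to 36.1% in the libraries labelled Bmal1 KO, where Prl2c3 holds 63.6% to 64.8%.

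Promoter windows of Prl2c3 and Prl2c5 from RefSeq (GRCm38.p6) were compared because both genes moved together while their levels were far apart. The 250 bases before the start site of each window are shown. They are chr13:12800080-12800329 on the minus strand for Prl2c3 and chr13:13182466-13182715 on the plus strand for Prl2c5. Both reach a few bases into the gene spans given above, so the start sites used are not the outer ends of those spans. Capitals mark bases that differ between the aligned sequences.
Prl2c3: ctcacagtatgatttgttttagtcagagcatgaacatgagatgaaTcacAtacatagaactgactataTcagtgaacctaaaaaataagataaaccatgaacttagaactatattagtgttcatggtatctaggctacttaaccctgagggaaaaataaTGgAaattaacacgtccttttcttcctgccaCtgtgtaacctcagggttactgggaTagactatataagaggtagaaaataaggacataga
Prl2c5: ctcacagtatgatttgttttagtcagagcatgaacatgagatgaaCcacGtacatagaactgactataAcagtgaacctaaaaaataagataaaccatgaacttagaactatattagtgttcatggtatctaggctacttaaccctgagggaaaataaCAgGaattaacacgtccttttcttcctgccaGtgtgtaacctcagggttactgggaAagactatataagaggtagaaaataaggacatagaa

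The windows were identical at 241 aligned bases and differed at 8 (96.8% identity), with 2 bases in gaps. Motifs were searched on both strands of the whole 300-base RefSeq windows, which add 50 bases after the start site. The clock E-box CACGTG, which 7.15% of 32851 promoters hold, was in neither. The AP-1 motif TGANTCA, held by 7.81% of promoters, matched Prl2c3 at -209 from the start site and not Prl2c5, where T46C, counted from 1 at the first printed base of Prl2c3, falls within the match. The STAT motif TTCNNNGAA, held by 8.3%, matched Prl2c3 once, at 26 bases after the start, and Prl2c5 nowhere. The hypoxia motif ACGTG, which lies inside the E-box and is held by 19.6%, matched Prl2c3 at -81 and Prl2c5 at -204 and -82. For Prl, none of these motifs was in the window. Of 3 Prlr promoters, none held the E-box, the second held the STAT motif at -110 and the hypoxia motif at -228, and the third held the AP-1 motif at -20 and the hypoxia motif at -178. These are matches of letters, not sites.

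Genes beside the proliferin copies had smaller differences. Of the 3 nearest protein-coding genes with reads before them, Ero1b, an oxidase of the endoplasmic reticulum, rose from 399 ± 102 to 1049 ± 107 (log2 fold change 1.42, adjusted p = 0.000258). Edaradd, at 20.1 ± 7.79 and 12.4 ± 4.55, and Lgals8, at 2873 ± 205 and 2548 ± 37.9 (adjusted p = 0.052), did not pass, though Lgals8 passed with TMM scaling (0.0227), without WT replicate 1 (0.00786) and in edgeR (0.0382). After the copies, Gm7040 had 0 reads in WT and 4 in Bmal1 KO. Gpr137b, 166 kb away, rose 1.77-fold (log2 fold change 0.83, adjusted p = 5.71e-05), and Nid1, which encodes the basement membrane protein nidogen 1, rose 5.48-fold from 27588 ± 5012 to 151264 ± 7910 (log2 fold change 2.47, adjusted p = 3.57e-06).

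Prl and Prl8a2 belong to the main prolactin cluster of chromosome 13, far from the Prl2c copies. Prl8a2, the decidual gene (chr13:27345673-27354216), had no read in any WT library, and 1503, 955 and 1073 reads in the libraries labelled Bmal1 KO. Those reads gave 1532, 1145 and 1226 normalized counts, a mean of 1301 ± 204 (SD, n = 3) at rank 5737. Taking 3 reads in all of WT as the floor, the level was at least 1466-fold higher. A count of 0 allows up to 0.0241 CPM (reads scaled to the library total) in WT, against 33.6 ± 5.3 CPM in Bmal1 KO. Of all genes without a WT read, 2 had a mean that high in Bmal1 KO, Prl8a2 included. Replicate 1 was the highest of the 3 libraries, and the spread (coefficient of variation 15.7%) was larger than counting gives (2.96%).

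Prl, the hormone gene itself (chr13:27057570-27065204), was far lower. WT libraries had no reads, and those labelled Bmal1 KO had 42, 25 and 32 reads, or levels of 42.8, 30.0 and 36.6. Its Bmal1 KO mean of 36.4 ± 6.41 (SD, n = 3) was at least 41.1-fold higher than the same floor, at rank 14066. Here the spread of 17.6% was the 17.7% that counting gives. In all, 14 genes without a WT read had a Bmal1 KO mean as high as that of Prl or higher, Prl and Prl8a2 included.

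The rest of the cluster was nearly silent at both labels. Of the 21 family genes other than the members, 13 had any read and 8 had none (Prl2b1, Prl3b1, Prl4a1, Prl5a1, Prl7c1, Prl8a1, Prl8a6 and Prl8a8). Together these 21 genes had 5 reads in WT and 56 in Bmal1 KO, and none passed the filter. The placental lactogen gene Prl3d2 had 24 of the 56, with 1 read in WT, and each other gene had at most 5. Between Prl and Prl8a2 lie 7 genes with 35 Bmal1 KO reads among them, and the 14 genes after Prl8a2 had 21. Prl2c1, whose coding sequence shares 94.1% of aligned bases with Prl2c2 but which lies in this cluster, had 0 reads in WT and 2 in Bmal1 KO. Prl2c4 has no row of its own, and RefSeq lists it as an older name of Prl2c3. Genes flanking the cluster on the side of Prl are 1790 to 2040 kb away. Of them, Nrsn1, a neuronal vesicle gene, rose 7.57-fold from 66.2 ± 35.3 to 501 ± 170.0 (log2 fold change 2.98, adjusted p = 0.00046), Dcdc2a rose 3.98-fold (1.90, 0.00658) and Mrs2, a mitochondrial magnesium channel gene, rose 2.10-fold (1.07, 4.96e-05).

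**Figure D3:**
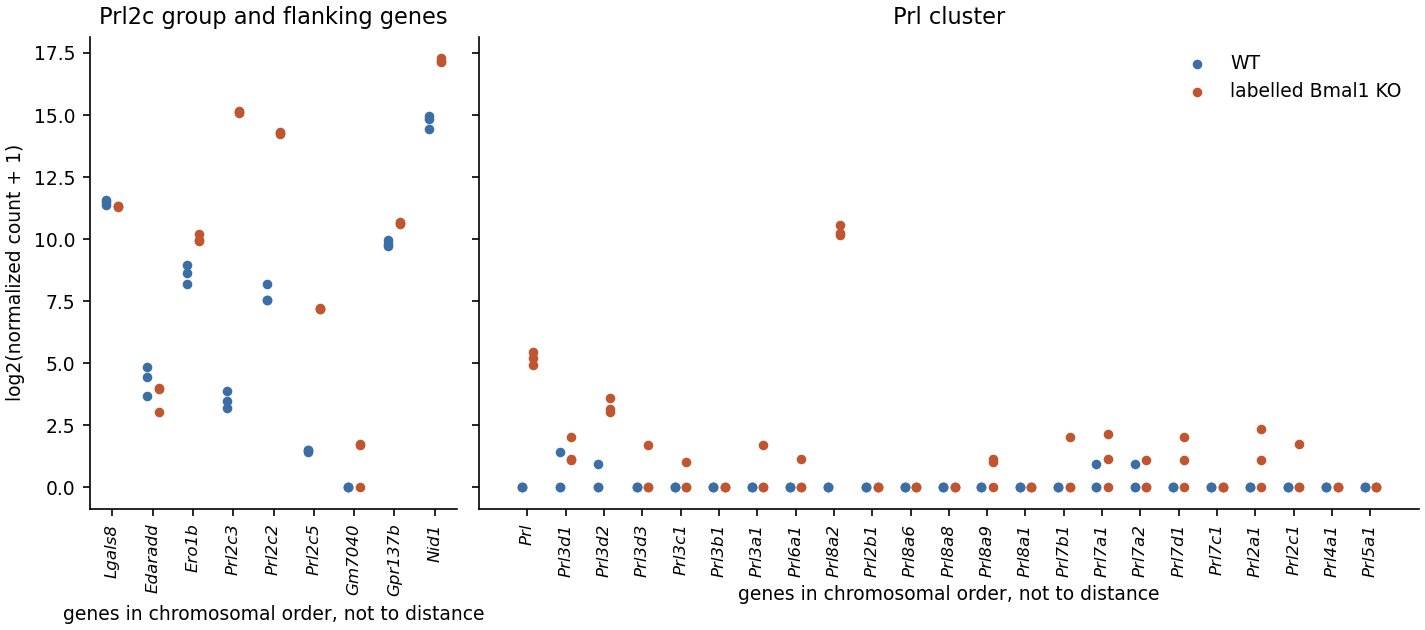
Level of each gene in chromosomal order, as log2 of the normalized count plus 1, for the Prl2c copies with 3 genes on either side and for the 23 genes of the prolactin cluster, 1 point per library. Within the cluster, Prl8a2 and Prl stand out in the libraries labelled Bmal1 KO, while 8 genes have no read in any library.

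Prlr, the receptor gene (chr15:10177238-10349190), was detected at both labels and varied most. It stood at 29.3, 10.8 and 49.7 in WT (32, 13 and 54 reads) and at 179, 288 and 274 in the libraries labelled Bmal1 KO. The labels did not overlap, but WT replicate 3 had over 4 times the level of WT replicate 2. The means were 30.0 ± 19.5 and 247 ± 59.1 (SD, n = 3), 8.25-fold apart, with a log2 difference of 3.21 that was 2.63 without WT replicate 2 and 3.68 without WT replicate 3. Spread in WT was 65.0%, against 19.7% from counting. Some cell type markers had the same order in WT, and others did not. The order of Prlr was shared by 3 of 5 endothelial genes, 2 of 5 macrophage genes, 3 of 5 fibroblast genes and 1 of 8 smooth muscle genes, 9 of 23 in all. Among those that shared it, chosen after their values were seen, the endothelial adhesion gene Pecam1 stood at 32.1, 14.1 and 58.0, the leukocyte gene Ptprc at 31.2, 7.46 and 55.3, and the smooth muscle myosin gene Myh11 at 24.8, 14.9 and 68.2. Vwf, also endothelial, at 164, 212 and 197, and the macrophage gene Cd68, at 294, 403 and 347, had a different order, with WT replicate 2 highest. Of the tested trophoblast genes described below, Krt7, Krt8, Krt18, Eomes and Gata3 also had the WT order of Prlr. Ascl2, Tfap2c, Gata2, Peg10 and Syna did not. With 3 libraries few orders are possible, and the share of all tested genes with that order was not counted. Nothing is therefore read from these counts. In the libraries labelled Bmal1 KO, Prlr was lowest in replicate 1. So was Myh11, at 259, 272 and 291, whereas Pecam1, at 247, 218 and 327, was lowest in replicate 2. Ptprc, at 204, 112 and 149.6, was highest in replicate 1. The part of these cells in the Prlr level was not tested.

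Endothelial and leukocyte genes were low but higher in Bmal1 KO. Summed over 5 endothelial genes, WT libraries held 316 to 434 and Bmal1 KO libraries 715 to 921, and 4 of 5 rose, among them Pecam1 (34.7 ± 22.1 to 264 ± 56.3, adjusted p = 0.000536) and Cdh5 (15.8 ± 13.4 to 82.4 ± 29.6, 0.00642). Of 5 macrophage genes, summed to 558 to 671 and 1138 to 1244, 4 rose, such as Ptprc (adjusted p = 0.00674), and Cd68 fell (348 ± 54.3 to 74.0 ± 13.4, 2.74e-05). No defining marker of either list was at 0. Of 5 fibroblast genes, 3 rose and 2 fell, Lum by 3.05 on the log2 scale (9.41e-07) and Pi16, whose call was lost in DESeq2 (0.0587) and without WT replicate 1 or 3 or Bmal1 KO replicate 1 or 2 (0.062 to 0.0763).

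Around Prlr, the nearest gene after it with more than a few reads, Dnajc21, stood at 1230 ± 219 and 1200 ± 69.5 (adjusted p = 0.881), and Brix1, a ribosome assembly gene, fell from 3036 ± 225 to 1534 ± 76.1 (log2 fold change -0.98, adjusted p = 1.59e-05). Agxt2 had 4 reads at either label. Before Prlr, the interleukin 7 receptor gene Il7r went from 15.5 ± 10.8 to 63.8 ± 79.0 without passing (adjusted p = 0.178), though it passed in DESeq2 (0.0315) and with a replicate block (0.0462). Capsl had 3 and 34 reads and Spef2 36 and 18, and neither was tested.

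Per kilobase of exon, the libraries labelled Bmal1 KO held 26121 ± 566 normalized counts of Prl2c3 and 18086 ± 413 of Prl2c2. Prl8a2 followed at 1385 ± 217, Prl2c5 at 124.6 ± 1.61, Prl at 25.9 ± 4.56 and Prlr at 16.1 ± 3.85 (SD, n = 3). Each step in this order was larger than the SDs of its neighbours, and the closest pair was Prl and Prlr. The length used was that of all annotated exons of a gene merged, 15339 bases for Prlr and 1408 for Prl. The SDs do not cover this choice. Without scaling by length, Prlr stood above Prl2c5 and Prl in Bmal1 KO (means 247, 147 and 36.4). Its WT mean was then also above that of Prl2c3 (30.0 and 10.7). In WT the order per kilobase was Prl2c2 at 203 ± 55.7, Prl2c3 at 7.89 ± 2.05, Prlr at 1.95 ± 1.27 and Prl2c5 at 1.51 ± 0.0882, with Prl and Prl8a2 at 0. Prlr and Prl2c5 did not differ there beyond their spread.

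Genes downstream of the receptor were examined next. Of 28 genes that carry or restrain prolactin receptor signals, all tested, 9 rose, 11 fell and 8 did not pass. The median log2 fold change of the list was -0.12. These shares are near those over all tested genes (36.2% higher and 34.9% lower), so nothing particular to the pathway is read from them, and the same holds for the mixed directions in the other lists described here. Jak2, the kinase bound to the receptor, fell from 7744 ± 190.2 to 2607 ± 59.7 (SD, n = 3), 2.97-fold, with 7543, 7768 and 7920 in WT and 2638, 2645 and 2538 in Bmal1 KO (log2 fold change -1.57, SE 0.0545, adjusted p = 2.61e-07). The related kinase gene Jak1 rose 2.73-fold, from 5705 ± 383 to 15587 ± 367 (log2 fold change 1.45, adjusted p = 1.15e-06). Stat5a fell from 1450 ± 108 to 784 ± 103.9 (log2 fold change -0.89, adjusted p = 0.000188). Stat5b, at 1676 ± 115.5 and 1515 ± 5.13, did not pass (adjusted p = 0.101), but did with TMM scaling (0.041) and without WT replicate 1 (0.0113), at -0.20 on the log2 scale in both.

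Among the SOCS and CISH inhibitors of cytokine receptors in the list, only Socs2 rose, and Cish, Socs1, Socs3 and Socs7 fell. Socs1 (adjusted p = 0.0414) lost its call under upper-quartile scaling (0.0725), with no filter (0.0557), with a replicate block (0.0708), in DESeq2 (0.0749) and without any 1 library (0.0604 to 0.118). Socs7 (0.0144) lost its call without Bmal1 KO replicate 1 (0.0607) or 2 (0.0553). Socs2, which restrains growth hormone and prolactin receptors, had the largest change of the list, from 1029, 699 and 799 in WT to 4183, 4255 and 4203 in Bmal1 KO, a rise of the mean from 842 ± 169 to 4214 ± 37.3 (log2 fold change 2.34, adjusted p = 2.87e-06). Cish, another STAT5-induced inhibitor, fell from 615 ± 48.6 to 274 ± 29.7 (log2 fold change -1.17, adjusted p = 7.66e-05). Ptpn2, a phosphatase that acts on JAK and STAT proteins, fell 2.53-fold (log2 fold change -1.33, adjusted p = 5.13e-05). Ghr, the growth hormone receptor gene and a close relative of Prlr, fell from 5118 ± 371 to 2558 ± 130.4 (adjusted p = 1.22e-05), opposite in direction to Prlr.

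Of 16 known STAT5 target genes, 12 had reads and 10 were tested. Of these, 3 rose (Socs2, Ccnd1 and Bcl2l1), 5 fell (Tnfsf11, Myc, Pim1, Cish and Igf1) and 2 did not pass (Csn3 and Gata3), with a median log2 fold change of -0.87, where 36.2% of all tested genes rose and 34.9% fell. Ccnd1, which encodes cyclin D1, rose 3.13-fold from 15433 ± 559 to 48370 ± 757 (adjusted p = 5.56e-07). Myc fell 4.68-fold, from 10665 ± 512 to 2280 ± 93.9 (adjusted p = 1.01e-07). Tnfsf11, the gene of the bone factor RANKL, fell from 24.9 ± 7.46 to 3.56 ± 3.16 (adjusted p = 0.00323). The milk protein genes Csn1s1, Csn2, Wap and Lalba, classic prolactin targets of the breast, had no read in any library.

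For the proliferin receptor and for proteases that cut prolactin into fragments, 10 genes were tested, of which 2 rose, 5 fell and 3 did not pass, a share of calls like the 71.1% over all tested genes. Their median log2 fold change was -0.41. Igf2r, which encodes the mannose 6-phosphate/IGF2 receptor that binds proliferin, went from 6294, 9883 and 9070 in WT to 6257, 6526 and 5989 in Bmal1 KO. This fall was just past the threshold (log2 fold change -0.40, adjusted p = 0.0458). It did not pass with upper-quartile scaling (0.0772) or without WT replicate 2 (0.119), WT replicate 3 (0.141) or any 1 of the Bmal1 KO libraries (0.0793 to 0.125). Among the metalloproteinase genes, Mmp2 fell 21.4-fold from 46936 ± 4332 to 2195 ± 73.7 (adjusted p = 1.65e-08), Mmp3 fell 3.73-fold and Mmp9 5.34-fold, while Mmp13 rose 2.18-fold. Tll1, a protease of the BMP1 type, rose 341-fold from 21.2 ± 9.39 to 7234 ± 60.5 (log2 fold change 8.45, adjusted p = 3.06e-07), whereas Bmp1 itself stood at 12174 ± 1176 and 12145 ± 286 (adjusted p = 0.994). M6pr, the smaller mannose 6-phosphate receptor, fell 1.85-fold.

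**Figure D4:**
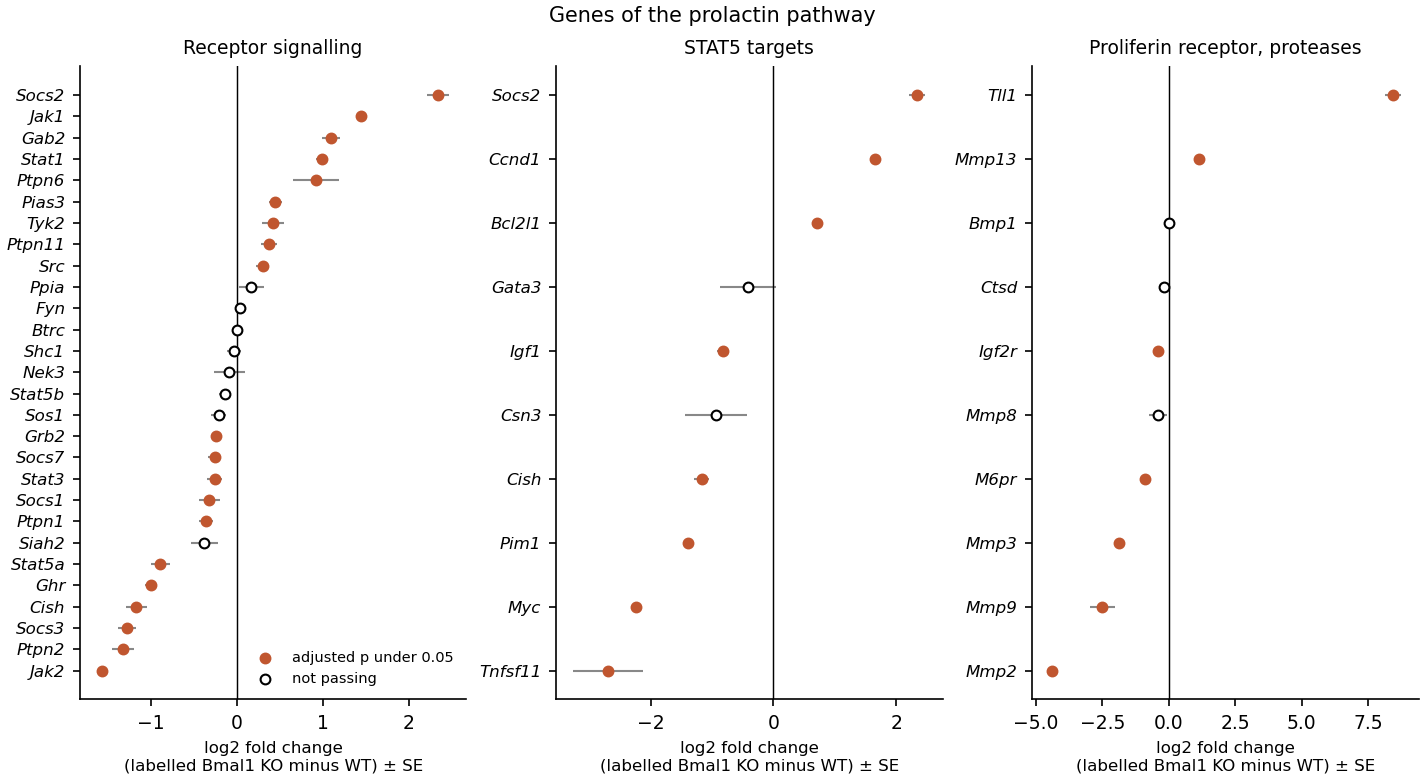
Log2 fold change (libraries labelled Bmal1 KO minus WT) with its SE for the tested genes of 3 lists, filled where the limma adjusted p was under 0.05 and open where it was not. Signalling genes lie on both sides of 0, from Jak2 at -1.57 to Socs2 at 2.34, and Tll1 at 8.45 is the largest change shown.

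Genes of the tissues that normally make these hormones were looked at next. Of 12 pituitary genes, the hormone genes Tshb, Fshb and Cga had no reads, and Pou1f1, the factor that switches on Prl in the pituitary, had 1 read in all. Among the 4 tested, Drd2, the dopamine receptor gene, rose from 16.0 ± 8.22 to 60.1 ± 35.1 (adjusted p = 0.0356), a call lost without WT replicate 2 or 3 or Bmal1 KO replicate 1 or 2 (0.0547 to 0.125). Summed over the list, WT held 282 to 454 and Bmal1 KO 156 to 599.

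Of 31 trophoblast genes, 10 had no read, among them the giant cell genes Hand1, Ctsq, Cts7 and Cts8. Tpbpa and Gcm1 had 1 read each, both in Bmal1 KO. Of 10 tested, 4 rose (Krt7, Krt8, Krt18 and Syna) and 5 fell (Eomes, Ascl2, Tfap2c, Gata2 and Peg10), with a median log2 fold change of -0.74. Eomes fell from 54.1 ± 9.88 to 8.18 ± 2.86 (adjusted p = 0.000255) and Ascl2 from 52.4 ± 1.77 to 9.58 ± 1.46 (0.000144). Krt18 rose from 30.3 ± 18.8 to 173 ± 44.3 (0.00223) and Krt8 from 485 ± 338 to 2446 ± 1830 (0.0257). The Krt8 call was lost without WT replicate 2, Bmal1 KO replicate 1 or Bmal1 KO replicate 3 (0.0524 to 0.0903). The summed level was 3386 to 4155 in WT and 2051 to 6331 in Bmal1 KO.

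Of 13 decidual genes, 11 were tested, 5 rose, 3 fell and 3 did not pass. Their median log2 fold change was 0.37. The genes Bmp2, a growth factor of decidualization, and Hand2, a factor of the uterine stroma, rose 14.4-fold and 9.51-fold (10.2 ± 5.71 to 147 ± 10.3 and 16.1 ± 4.40 to 153 ± 12.1). Hoxa10 fell from 59.3 ± 5.15 to 4.92 ± 5.10 (adjusted p = 0.00285), Alpl from 252 ± 45.0 to 36.6 ± 10.7 (3.47e-05) and Cebpb from 28091 ± 5134 to 5950 ± 189 (2.55e-06). Igfbp1 had 2 reads at either label, and Hoxa11 none in WT and 2 in Bmal1 KO.

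Genes with the most similar profile were named for each member by the root mean square (RMS) gap between centred log2 profiles over the 6 libraries, among 15922 genes. Because every profile is dominated by the step between labels, likeness mostly means a step of like size. For Prl2c3, genes among the nearest 3 were Fmo2, a flavin-containing monooxygenase gene (RMS gap 0.29), and the carboxypeptidase gene Folh1 (0.55). Prl2c2 was nearest to Elobl (0.15), the olfactory receptor gene Or5m3b (0.19) and Slfn5 (0.19). Prl2c5 was nearest to Igfbp6 (0.12), which encodes a binding protein of IGF, Trabd2b (0.12) and Prrg3 (0.14). Folh1 (0.19) was also nearest to Prl8a2, before the mast cell tryptase gene Tpsab1 (0.46) and the histocompatibility gene H2-M1 (0.53). Prl was nearest to the skin gene Lce3f (0.13), the steroid enzyme gene Cyp11b1 (0.16) and the protease inhibitor gene Tfpi2 (0.17). For Prlr they were the serpin gene Serpini2 (0.12), Sez6l (0.14) and Art4 (0.15). Sez6l, at 83.5, 36.5 and 157 in WT, shared the WT order of Prlr.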

How the data were processed

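The authors' deposited table holds a signal per gene and library, namely normalized read counts. The submitters' processing notes name Trimmomatic, HISAT2, featureCounts and mm10, without versions or roles. Per the labels' protocols, a stranded mRNA kit was used on 1.0 µg of total RNA, and all libraries carry 1 batch label. Of the values, 100% were whole multiples of 1 step per library within 0.01, which gave whole reads and size factors (1.09, 1.21 and 1.09 for WT, 0.981, 0.834 and 0.875 for Bmal1 KO). All 6 columns were mapped by the library name in the sample description and the title (0 unmapped).

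Tests used limma 3.58.1 in R 4.3.3 on log2(value + 1) with eBayes trend, group as the only term, genes with at least 10 in at least 3 libraries and a Benjamini-Hochberg threshold of 0.05. The script was tested on simulated data. On recovered reads, edgeR 4.0.16 called 11479 genes and DESeq2 1.42.0 called 11267, against 11435. Folds are ratios of mean normalized counts. The log2 scale understates changes of low genes. Coordinates and symbols came from RefSeq (25275 of 27179 genes matched by Gene ID), and transcripts and exon lengths from GENCODE M21, both GRCm38. RefSeq promoters were matched for Prl, Prlr, Prl2c3 and Prl2c5 by symbol, 4 of 6.

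Members and gene lists were chosen with earlier results of these data known. Named genes were the members, other family genes, up to 4 of each list by size of change among those passing, Jak2, Stat5a, Stat5b, Socs2, Cish, Ghr and Igf2r, 3 neighbours on each side and 3 nearest profiles. To complete counts of 5 or fewer, other genes were named after their values were seen. Some genes that the rule takes are not reported here. Replicates differed by more than counting noise in every pair. Alternatives were other pseudocounts, scalings and filters, a replicate block, each library left out, edgeR and DESeq2.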

Additional observations from a re-analysis of the deposited data

How the results depend on the processing

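The log2 differences of the 6 genes kept their sign under every alternative run, and their size moved mainly where 1 label had few reads. With a pseudocount of 0.5 they were 6.19 for Prl, 6.01 for Prl2c5 and 11.33 for Prl8a2, and with 8 they were 2.46, 3.98 and 7.34, and 10.90 for Prl2c3. A pseudocount sets such values by construction. With all copies summed, Prl2c2, Prl2c3 and Prl2c5 share 1 value of 7.91. TMM scaling gave 5.69 and upper-quartile scaling 5.78 for Prl2c5. Leaving out 1 library gave 5.09 to 5.34 for Prl, 2.63 to 3.68 for Prlr, 6.39 to 6.72 for Prl2c2, 11.44 to 11.77 for Prl2c3, 5.70 to 5.75 for Prl2c5 and 10.21 to 10.42 for Prl8a2.

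Replicate numbers did not pair the samples, since same-numbered libraries had correlations of -0.00447, 0.0258 and 0.0839. With a replicate block 11556 genes passed, 5869 higher and 5687 lower. Of 1058 values of 74 named genes under alternatives, 1033 stayed on the same side of the threshold, 18 lost the call, 7 gained it and no called value changed sign. Of the 1033, 3 had the other sign, all for Dnajc21, which never passed. Among the 74, calls changed for Drd2, Igf2r, Il7r, Krt8, Lgals8, Pi16 and Stat5b. Socs1 and Socs7, whose lost calls are given above, were not among the 74, so these totals do not cover every gene named. Depth limits Prl and Prl2c5 most, and shared reads limit the split of the Prl2c copies.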
